A study of Mus musculus with 27 samples.

Results

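The MHC class II genes were followed by 10 symbols through the aorta of mice infused with angiotensin II (Ang II): Cd74, H2-Aa, H2-Ab1, H2-Eb1, H2-DMa, H2-DMb1, H2-DMb2, H2-Oa, H2-Ob and Ciita. They were chosen by name and not by a cutoff on a measured value, though earlier results of these data were known. All 10 of 10 were present among 42375 rows of each bulk RNA count table and among 32285 genes of each single-cell matrix. All mice were C57BL/6 and received Ang II for 28 days, so no sample was without Ang II. Bulk RNA was measured in non-stripped aorta (3 TKO and 3 Cre libraries), stripped aorta (2 TKO and 4 Cre), fibroblasts isolated from digested aorta (3 TKO and 3 Cre), and non-stripped aorta of TKO mice given an anti-IL-9 antibody or IgG (2 and 3). Single cells came from digested non-stripped aorta (2 TKO and 2 Cre libraries). The labels define neither TKO nor Cre, and give no age, sex or promoter for the Cre. From knowledge of the study, TKO mice lack Klf10 in T cells through a Cre driven by Cd4 and Cre mice carry that driver without the deletion. On that design other cells of TKO aorta would keep Klf10, and the anti-IL-9 and IgG groups would both carry the deletion. What was stripped away is not stated, nor whether a library came from 1 animal or a pool, so p-values measure the spread between these libraries.

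MHC class II molecules carry peptides from proteins taken up by a cell to its surface, where CD4+ T cells read them. The alpha and beta chains (H2-Aa with H2-Ab1, and H2-Eb1) assemble on the invariant chain, which Cd74 encodes. H2-DM (H2-DMa with H2-DMb1 or H2-DMb2) exchanges the remaining invariant chain fragment for other peptides, and H2-DO (H2-Oa with H2-Ob) restrains H2-DM. Ciita encodes the coactivator that the class II promoters need, and interferon-gamma can raise it in cells that do not normally present antigen. In arteries the known carriers are dendritic cells, B cells and macrophages of the adventitia.

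Of the 10 genes, 8 lie on chromosome 17 of GRCm38 within the MHC, Ciita lies on chromosome 16 (16:10480059-10528418, plus strand) and Cd74 on another autosome. From the lower coordinate upward the order on chromosome 17 was H2-Oa, H2-DMa, H2-DMb2, H2-DMb1, H2-Ob, H2-Ab1, H2-Aa and H2-Eb1, and H2-Aa alone was on the minus strand. H2-DMa (17:34119541-34139101) overlaps Brd2 on the other strand, and H2-DMb1 and H2-DMb2 are close copies. Since the labels do not state whether counting used strand or how shared reads were split, bulk values of these 3 genes are uncertain.

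The promoters are shown because they carry the elements through which these genes are known to be switched on together. RefSeq windows on GRCm38.p6, from 250 bases before to 50 bases after the gene start, were searched for 7 of the 10 genes. Cd74 was left out of the search, and H2-Ab1 and Ciita had no window. Both strands were searched for an X box core (GNAAC) followed 14 to 45 bases later by a Y box core (ATTGG), and the letters of the search were set after the windows had been seen. The stretches below run 5′ to 3′ on the gene strand, and the capitals mark the cores.
H2-Oa, chr17:34092283-34092360, plus strand: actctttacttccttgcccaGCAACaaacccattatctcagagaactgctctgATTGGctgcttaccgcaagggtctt
H2-DMb2, chr17:34145106-34145183, plus strand: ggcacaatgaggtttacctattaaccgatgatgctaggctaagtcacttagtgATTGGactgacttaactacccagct
H2-DMb1, chr17:34153077-34153154, plus strand: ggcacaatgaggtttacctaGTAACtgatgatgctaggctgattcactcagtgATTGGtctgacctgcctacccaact
H2-Ob, chr17:34238798-34238872, plus strand: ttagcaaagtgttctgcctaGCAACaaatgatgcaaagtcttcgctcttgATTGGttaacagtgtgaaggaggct
H2-Aa, chr17:34287847-34287924, minus strand: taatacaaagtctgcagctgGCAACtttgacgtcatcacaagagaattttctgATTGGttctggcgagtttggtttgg
H2-Eb1, chr17:34305756-34305832, plus strand: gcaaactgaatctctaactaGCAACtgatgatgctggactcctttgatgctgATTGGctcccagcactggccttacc
The pair stood on the gene strand of 5 genes, with the start of the Y core 33 bases after the start of the X core in H2-Oa, H2-DMb1 and H2-Aa, 32 bases in H2-Eb1 and 30 bases in H2-Ob. H2-DMb2 held the Y core in the place where its copy H2-DMb1 has both cores, and neither of 2 windows of H2-DMa held the pair. Of all 32851 promoter windows of that length, 84.8% held the X core, 37.4% the Y core and 2.5% the pair on the gene strand. A match describes letters in a window and is not a measured binding site.

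The 23 bulk libraries held from about 17179300 to about 38633600 counts in genes. Counts were scaled to counts-per-million values (CPM) with TMM, and each comparison was tested over all genes with edgeR's quasi-likelihood test and Benjamini-Hochberg adjustment at 0.05. Klf10 counts were 822, 696 and 0 in TKO non-stripped aorta, against 1049, 943 and 1400 in Cre. They overlapped between genotypes in stripped aorta (1005 and 616 in TKO, 849 to 1887 in Cre) and in fibroblasts (1890 to 2439 in TKO, 1922 to 2746 in Cre). A deletion in T cells alone would not bring whole aorta to 0, so TKO replicate 3 stands apart from TKO replicates 1 and 2, and its genotype may not be the same as theirs. The files do not settle this, and results of non-stripped aorta below are also given without that library. In stripped aorta and fibroblasts the gene does not check the genotype labels. In the antibody comparison, where both groups are TKO, Klf10 was lower with anti-IL-9 (log2 fold change -0.80 ± 0.22, adjusted p = 0.0296). There 11% of all genes were called lower, and the reason was not tested.

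Set per gene length, the levels had the same order from Cd74 down to H2-Ob in non-stripped and stripped aorta. Median CPM per kb in non-stripped aorta was 72.9 for Cd74, 37.2 for H2-Eb1, 22.1 for H2-Ab1 and 14.8 for H2-Aa. The accessory genes followed at 3.65 for H2-DMb1, 1.75 for H2-DMa, 0.829 for H2-DMb2, 0.384 for H2-Ob, 0.313 for Ciita and 0.145 for H2-Oa. In isolated fibroblasts the median CPM per kb was 19.8 for Cd74, 5.78 for H2-Eb1, 5.09 for H2-Ab1 and 2.11 for H2-Aa, with H2-DMb1 at 3.18 above H2-Aa. The share of the 10 genes' counts that fell to Cd74 and the 3 classical chains was 93.8 to 94.9% in non-stripped libraries, 92.2 to 95.4% in stripped libraries and 80.4 to 87.2% in fibroblasts. H2-Ab1 counts per 100 of H2-Aa were 85.9 to 106 in non-stripped aorta, 67.7 to 75.5 in stripped aorta and 129 to 184 in fibroblasts, ranges that did not meet. These ranges compare libraries of separate tables, and the difference between preparations was not tested.

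**Figure D1:**
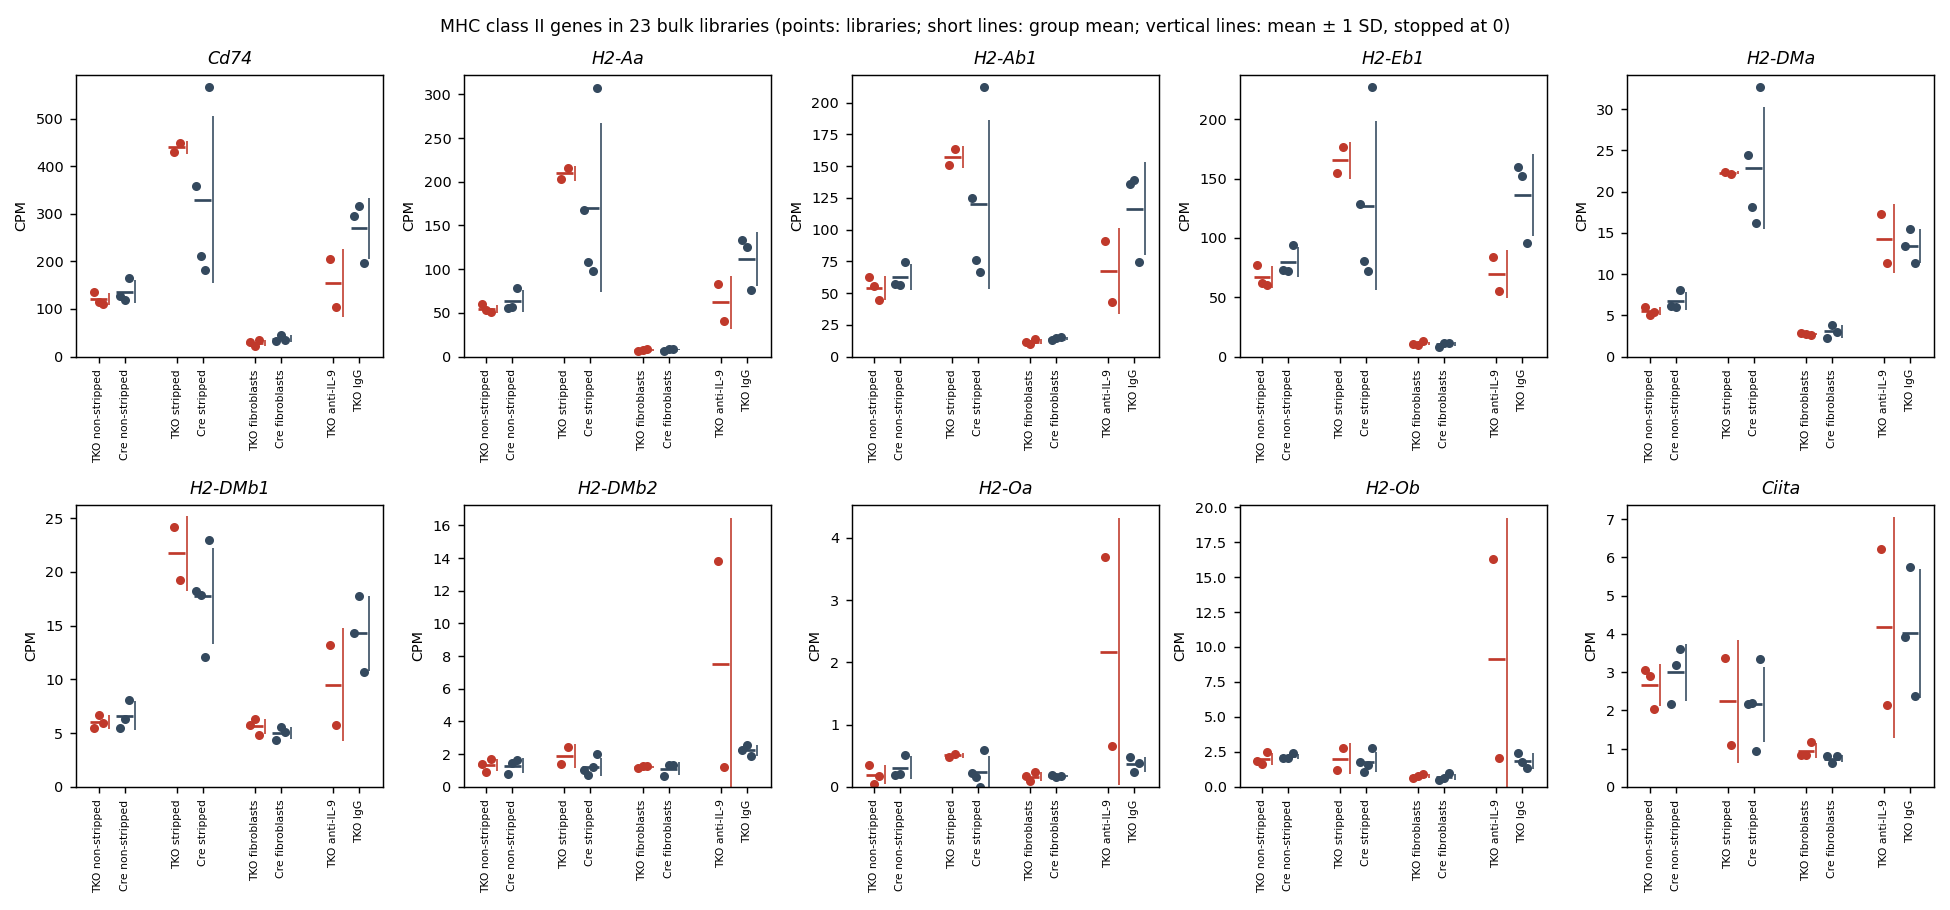
Level in CPM (linear axis from 0, 1 panel per gene) of the 10 MHC class II genes in each bulk library, for TKO and Cre in non-stripped aorta, stripped aorta and fibroblasts, and for anti-IL-9 and IgG in TKO aorta. Points are libraries, short lines the group mean and vertical lines the mean ± 1 SD. TKO and Cre points overlap except for H2-DMa in non-stripped aorta and Ciita in fibroblasts, whereas H2-DMb2, H2-Oa and H2-Ob of 1 anti-IL-9 library stand at 13.8, 3.69 and 16.3 CPM, above all the others.

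In non-stripped aorta, which asks how loss of Klf10 in T cells goes with the whole vessel, none of the tested class II genes passed the test between genotypes. Cd74 had 136, 116 and 111 CPM in TKO libraries, against 126, 118 and 165 CPM in Cre libraries. The groups overlapped, and Cre replicate 3 was the highest of the 6. The means were 121 ± 13.2 CPM in TKO and 136 ± 24.8 CPM in Cre (SD, n = 3 each), a log2 fold change of -0.17 ± 0.14 (SE, adjusted p = 0.542). The classical chains gave similar differences, with the same Cre library on top each time. H2-Aa had 60.0, 52.9 and 51.4 CPM in TKO, against 55.7, 56.7 and 78.3 CPM in Cre (log2 fold change -0.21 ± 0.15, adjusted p = 0.457). H2-Ab1, the beta chain that pairs with it, averaged 54.2 ± 9.34 CPM in TKO and 62.8 ± 10.4 CPM in Cre (log2 fold change -0.21 ± 0.16, adjusted p = 0.502). H2-Eb1 averaged 66.8 ± 9.35 CPM in TKO and 79.6 ± 12.7 CPM in Cre (log2 fold change -0.25 ± 0.14, adjusted p = 0.378).

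The peptide exchange genes followed below the classical chains. H2-DMa had 6.03, 5.09 and 5.35 CPM in TKO, against 6.17, 6.06 and 8.03 CPM in Cre. It was the single gene of the 10 whose TKO libraries all lay below the Cre libraries, a pattern shown by 10.6% of all tested genes, and its log2 fold change of -0.30 ± 0.17 missed the threshold (adjusted p = 0.378). H2-DMb1 averaged 6.04 CPM in TKO and 6.63 CPM in Cre (log2 fold change -0.13 ± 0.19), and H2-DMb2 1.34 and 1.30 CPM (0.05 ± 0.36). H2-Oa, with 7, 1 and 3 counts in TKO and 5, 4 and 11 in Cre, did not pass the count filter and was not tested. H2-Ob averaged 2.00 CPM in TKO and 2.18 CPM in Cre, and Ciita 2.67 and 2.99 CPM (log2 fold change -0.16 ± 0.26, adjusted p = 0.775). In all, 0 of the 9 tested genes were called, where 0.119% of all 15158 tested genes were, and 0 of the 9 had an unadjusted p under 0.05, beside 17.9% of all genes. Of the 9, 8 had a negative fold change, beside 52.8% of all genes, and their median was -0.17 beside -0.02 over all genes. Without TKO replicate 3, the library with no Klf10 count, that median was -0.15 and 0 of the 9 were called, beside 1.51% of all genes. Without Cre replicate 3 it was -0.04. DESeq2 also called 0 of the 9, while it called 5.25% of all genes.

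Some summed cell markers of the non-stripped libraries did not overlap between genotypes, though 0 markers of the lists given here were called. Summed smooth muscle markers were at 225 to 298 CPM in TKO and 406.4 to 647 CPM in Cre, with 0 of 7 higher in TKO. Endothelial markers were at 663 to 758 CPM in TKO and 819 to 906 CPM in Cre, with 0 of 8 higher, and skeletal muscle markers at 2733 to 11140 CPM in TKO and 274 to 901 CPM in Cre, with 5 of 5 tested markers higher. None of these 3 sums overlapped between genotypes. Schwann and mesothelial sums were also lower in TKO without overlap, and NK or innate lymphoid cell and proliferating sums higher. Of all tested genes, 10.6% were lower in TKO without overlap. Markers of cells that carry class II genes overlapped, with macrophage markers at 173 to 210 CPM in TKO and 153 to 185 CPM in Cre, and B cell markers at 6.28 to 8.72 CPM in TKO and 5.70 to 14.98 CPM in Cre. Conventional dendritic cell markers overlapped too, at 48.1 to 56.6 CPM in TKO and 52.7 to 65.1 CPM in Cre. Of 8 tested markers of that list, 2 were higher in TKO. The part of any marker difference in the class II values was not tested.

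Stripped aorta was measured in 2 TKO and 4 Cre libraries, and there the Cre libraries themselves differed widely. Cd74 had 430 and 449 CPM in TKO, against 358, 212, 182 and 565 CPM in Cre, so both TKO libraries lay inside the Cre range. H2-Aa had 204 and 216 CPM in TKO, against 167, 108, 98.4 and 307.6 CPM in Cre. Cre replicate 4 was highest and Cre replicate 3 lowest for each of these, and for H2-Ab1 and H2-Eb1 as well. The log2 fold changes were 0.42 ± 0.42 for Cd74 (439 ± 13.6 CPM in TKO and 329 ± 175 CPM in Cre, adjusted p = 0.699), 0.30 ± 0.43 for H2-Aa, 0.39 ± 0.43 for H2-Ab1 and 0.38 ± 0.43 for H2-Eb1. Leaving out Cre replicate 4 moved the median of the 10 genes to 0.78, against 0.34 with it. All 10 fold changes were then positive and 4 had an unadjusted p under 0.05, a share not counted over all genes in that fit. Of the 10, 0 were called, beside 0.14% of all genes.

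Of the accessory genes, H2-DMa averaged 22.3 CPM in TKO and 22.9 CPM in Cre stripped aorta, and H2-DMb1 21.7 and 17.8 CPM (log2 fold change 0.29 ± 0.24). H2-DMb2 had 1.37 and 2.41 CPM in TKO, against 1.02, 0.732, 1.19 and 2.00 CPM in Cre. H2-Ob had 1.22 and 2.81 CPM in TKO, against 1.80, 1.07, 1.58 and 2.75 CPM in Cre. Ciita had 3.38 and 1.10 CPM in TKO, against 2.17, 2.20, 0.946 and 3.35 CPM in Cre. The 2 TKO libraries thus differed more from each other in Ciita than the group means did (2.24 and 2.16 CPM). H2-Oa, at 13 and 16 counts in TKO and 7, 5, 0 and 22 in Cre, had too few counts to show a change of its size (log2 fold change 1.00 ± 0.96). In the fit of all 6 libraries, 0 of 10 genes were called beside 0.024% of 16684 genes, 0 had an unadjusted p under 0.05 beside 13.8%, and DESeq2 also called 0 of 10, beside 3.46% of all genes. Of the 10, 9 had a positive fold change, where 49.8% of all genes had a negative one. TKO replicate 2 carried more T cell marker RNA than the rest (84.8 CPM summed over the T cell list, against 12.5 CPM in TKO replicate 1 and 7.0 to 13.9 CPM in Cre). B cell markers summed to 4.12 and 14.3 CPM in TKO and 2.70 to 4.74 CPM in Cre, with 5 of 5 tested markers higher in TKO. Adipocyte markers (1304 to 1781 CPM in TKO and 374 to 858 CPM in Cre), mesothelial markers (23.7 to 27.3 CPM in TKO and 61.4 to 164 CPM in Cre) and smooth muscle markers (4214 to 6443 CPM in TKO and 6997 to 8227 CPM in Cre) did not overlap between genotypes. Of the B cell, adipocyte, mesothelial and smooth muscle markers 0 were called, and the part of these cells in the class II values was not tested.

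In isolated fibroblasts the class II genes were counted at low level, and none passed the test. Cd74 had 29.6, 22.3 and 35.1 CPM in TKO fibroblasts, against 32.1, 45.7 and 34.4 CPM in Cre fibroblasts. The groups overlapped (29.0 ± 6.41 CPM in TKO and 37.4 ± 7.27 CPM in Cre, SD, n = 3 each), and the log2 fold change of -0.37 ± 0.19 had an adjusted p of 0.477. H2-Ab1 had 11.5, 9.68 and 13.5 CPM in TKO, against 12.7, 14.4 and 15.3 CPM in Cre (log2 fold change -0.29 ± 0.15, adjusted p = 0.469). H2-Aa averaged 7.74 CPM in TKO and 8.07 CPM in Cre, and H2-Eb1 11.2 and 10.5 CPM. Ciita, the coactivator, was the single gene without overlap, at 0.826, 0.832 and 1.17 CPM in TKO and 0.800, 0.623 and 0.798 CPM in Cre. That is 27 to 40 counts in TKO and 20 to 30 counts in Cre, and 8.86% of all genes were likewise higher in TKO without overlap. Its log2 fold change was 0.35 ± 0.27 (adjusted p = 0.634). Of the 9 tested genes 0 were called, beside 0.0638% of 15670 genes, 0 had an unadjusted p under 0.05, beside 12.1%, and DESeq2 called 0 of 9, beside 2.66%. The libraries also held macrophage marker RNA, 117 to 156 CPM summed over the list in TKO and 188 to 412 CPM in Cre, with 0 of 9 tested markers higher in TKO and 0 called. Fibroblast markers summed to 5066 to 7407 CPM in TKO and 3108 to 5106 CPM in Cre, and the part of either difference in the Cd74 values was not tested.

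The size of the genotype difference was set against itself between preparations in 1 fit over all tables. Cd74 differed by -0.58 ± 0.47 between non-stripped and stripped aorta (its log2 fold change in non-stripped minus that in stripped aorta, adjusted p = 0.550) and by 0.75 ± 0.47 between stripped aorta and fibroblasts (adjusted p = 0.491). Of the 10 genes 0 passed either test, beside 2.52% and 0.289% of 19061 genes, so the negative fold changes of non-stripped aorta and the positive ones of stripped aorta are not shown to differ.

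**Figure D2:**
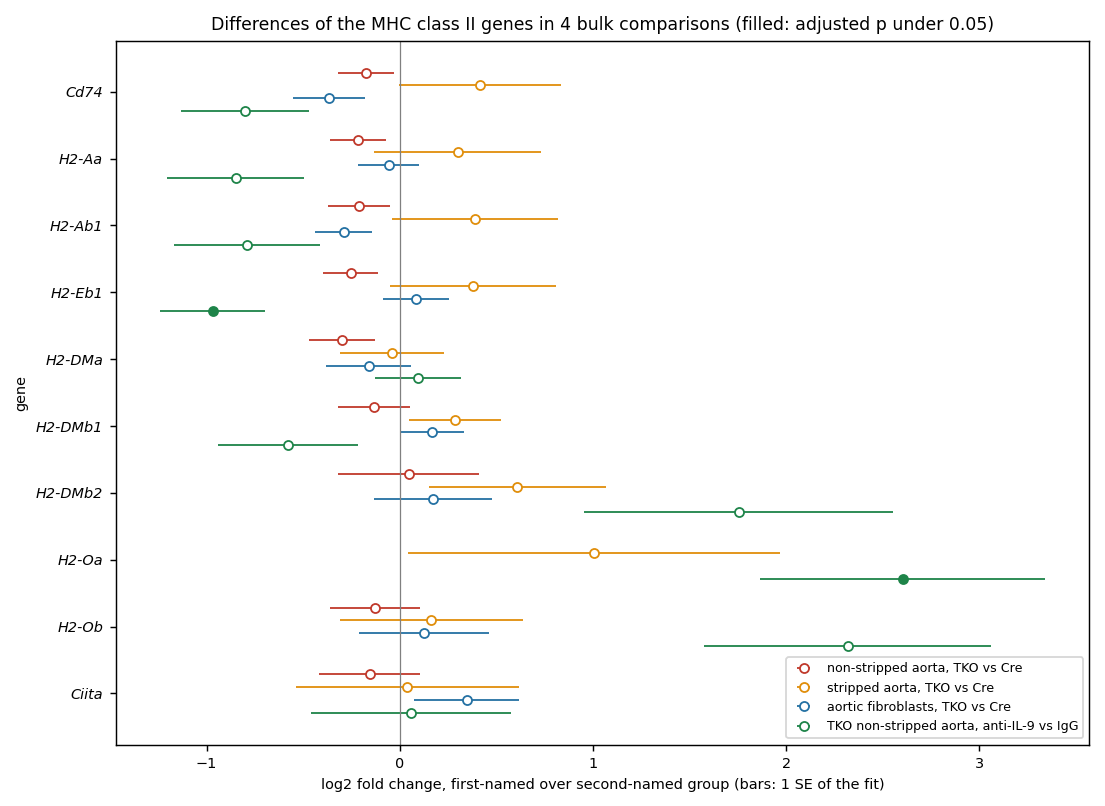
Log2 fold change of each class II gene in the 4 bulk comparisons (TKO over Cre, and anti-IL-9 over IgG), 1 row per gene and 1 colour per comparison, with horizontal bars of 1 SE and filled symbols for adjusted p under 0.05. Of the 4 comparisons, the antibody one alone has filled symbols, H2-Eb1 at -0.97 and H2-Oa at 2.60.

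In TKO mice given anti-IL-9, which asks what blocking IL-9 does in the absence of T cell Klf10, the class II genes separated into 2 sets. Cd74, the classical chains and H2-DMb1 had lower means with the antibody, while the H2-DO genes and H2-DMb2 had higher means. H2-Eb1 had 83.8 and 55.3 CPM with anti-IL-9, against 160, 152 and 96.1 CPM with IgG. Both antibody libraries lay below all IgG libraries, as for 27.7% of all genes, and H2-Eb1 fell (69.5 ± 20.2 CPM, n = 2, and 136 ± 34.8 CPM, n = 3; log2 fold change -0.97 ± 0.27, adjusted p = 0.0339). Cd74 had 206 and 103 CPM with anti-IL-9, against 294, 317 and 197 CPM with IgG. The ranges met at the upper antibody and the lower IgG library, and the log2 fold change was -0.80 ± 0.33 (adjusted p = 0.107). H2-Aa had 83.4 and 40.3 CPM with anti-IL-9, against 133, 126 and 75.9 CPM with IgG (log2 fold change -0.85 ± 0.35, adjusted p = 0.110). H2-Ab1 averaged 67.2 ± 33.9 CPM with anti-IL-9 and 117 ± 36.5 CPM with IgG (log2 fold change -0.79 ± 0.38, adjusted p = 0.152). In bulk tissue, fewer cells of a type and less RNA per cell cannot be told apart.

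The H2-DO genes went the other way, and mostly in 1 library. H2-Oa had 3.69 and 0.656 CPM with anti-IL-9 (92 and 12 counts), against 0.478, 0.232 and 0.376 CPM with IgG (9, 5 and 6 counts). Both antibody libraries were above the IgG libraries, as for 32.1% of all genes, and H2-Oa rose (log2 fold change 2.60 ± 0.74, adjusted p = 0.0344). H2-Ob, its partner, had 16.3 and 2.08 CPM with anti-IL-9, against 2.44, 1.76 and 1.32 CPM with IgG (log2 fold change 2.32 ± 0.74, adjusted p = 0.0520). H2-DMb2 had 345 and 22 counts with anti-IL-9, against 43, 55 and 30 counts with IgG (log2 fold change 1.75 ± 0.80, adjusted p = 0.138). For both genes the first antibody library was far above the rest, while the second lay among the IgG libraries or below them. H2-DMb1, the copy of H2-DMb2, had 13.2 and 5.80 CPM with anti-IL-9, against 14.3, 17.8 and 10.7 CPM with IgG. H2-DMb2 therefore took 51.1% and 17.2% of the H2-DMb counts with anti-IL-9, against 12.6 to 14.9% with IgG. H2-Ob counts per 100 of H2-Aa were 19.5 and 5.15 with anti-IL-9, against 1.4 to 1.83 with IgG. H2-DMa (log2 fold change 0.09 ± 0.22) and Ciita (0.06 ± 0.52) did not pass the test.

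This makes 2 of 10 genes called, 1 in each direction, where 32.1% of all 16459 tested genes were called (21% higher and 11% lower). The share of class II genes called was thus no higher than that background. Leaving out either antibody library leaves 1 against the IgG libraries, so only log2 fold changes are given for these fits. Without the first antibody library they were -1.40 for Cd74, -1.48 for H2-Aa, -1.32 for H2-DMb1 and -1.32 for H2-Eb1. In that fit H2-DMb2 was at -0.91 and H2-Oa at 0.84. Without the second antibody library H2-DMb2 was at 2.61, H2-Ob at 3.12 and H2-Eb1 at -0.71. Without IgG replicate 1 or IgG replicate 2, 0 of 10 were called. Without IgG replicate 3, H2-Eb1 alone was called and H2-Oa had an adjusted p of 0.100. DESeq2 called 5 of 10, adding Cd74 (adjusted p = 0.0293), H2-Aa (adjusted p = 0.0342) and H2-Ob (adjusted p = 0.00610), where it called 34.8% of all genes.

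Markers of other cells moved with both sets. The first antibody library held 515 counts of Cd79a and 181 of Ms4a1, both B cell genes, against 44 and 20 in the second and at most 74 and 27 with IgG. The B cell list summed to 108 and 19.6 CPM with anti-IL-9, against 4.82 to 13.3 CPM with IgG, with 6 of 6 tested markers higher and 3 called. The T cell list summed to 54.7 and 7.71 CPM with anti-IL-9 and 5.89 to 10.3 CPM with IgG. The macrophage list summed to 179 to 205 CPM with anti-IL-9 and 445 to 762 CPM with IgG, with 0 of 9 tested markers higher and 7 called lower. The fibroblast list summed to 1447 to 2071 CPM with anti-IL-9 and 4079 to 11498 CPM with IgG, and the smooth muscle list to 1516 to 1548 and 533 to 878 CPM. Conventional dendritic cell markers summed to 49.4 to 67.3 CPM with anti-IL-9 and 63.3 to 90.9 CPM with IgG, with 0 of 9 called. Migratory dendritic cell markers summed to 192 to 236 CPM with anti-IL-9 and 135 to 164 CPM with IgG, with 5 of 6 tested markers higher and 1 called. Plasmacytoid dendritic cell markers summed to 129.8 to 177 CPM with anti-IL-9 and 119.9 to 161 CPM with IgG, with 2 of 4 tested markers higher and 1 called. The part of these cell types in the class II values was not tested.

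The genes around the class II genes were read from named lists. In the 3 genotype comparisons 0 genes of any list were called. The smallest adjusted p belonged to Rfxank, a subunit of the RFX complex that binds the X box, in non-stripped aorta (log2 fold change -0.73, adjusted p = 0.0729), to Ddt, a ligand of CD74, in stripped aorta (0.86, adjusted p = 0.101) and to Gpsm3, a neighbour in the MHC, in fibroblasts (-0.74, adjusted p = 0.236). Among interferon-gamma input genes the medians were -0.30 in non-stripped aorta (23 genes, 5 with an unadjusted p under 0.05), 0.11 in stripped aorta (23 genes, 3 with such a p) and 0.37 in fibroblasts (24 genes, 3 with such a p), beside -0.02, 0.00 and 0.01 over all genes. In the antibody comparison the counts of each list stand beside 21% of all genes called higher and 11% called lower. There, 2 of 14 tested regulators of class II transcription rose and 1 fell. They were Spib, a transcription factor of B cells and plasmacytoid dendritic cells (5.11 ± 5.52 CPM with anti-IL-9, n = 2, and 0.916 ± 0.288 CPM with IgG, n = 3, so that the antibody libraries differed widely; 2.49, adjusted p = 0.0441), Hdac2 (0.38, adjusted p = 0.0414) and Nfyc, a subunit of the Y box factor NF-Y (-0.51, adjusted p = 0.0498). Of 24 interferon-gamma input genes 2 fell, a share no higher than that of all genes: Ifngr1, a chain of the interferon-gamma receptor, with 54.8 CPM under anti-IL-9 and 106 CPM under IgG (-0.95, adjusted p = 0.00207), and Gbp2 (-0.70, adjusted p = 0.0320).

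Of 13 endosomal protease and antigen processing genes, 2 fell with anti-IL-9, namely the cathepsin gene Ctsh (-1.26, adjusted p = 0.00758) and the lysosomal membrane gene Lamp2 (-0.67, adjusted p = 0.00938), and the list's median was -0.41. Among 4 tested genes that interact with CD74, Cxcr4 rose to 65.2 CPM with anti-IL-9, against 9.27 CPM with IgG (2.82 ± 0.30, adjusted p = 0.000556). Of 11 neighbours in the MHC, Tnxb, an extracellular matrix gene (-1.50, adjusted p = 0.00357), and Notch4, a receptor of endothelium (-0.90, adjusted p = 0.0224), fell. Of 4 tested genes on the surface turnover and inhibition list (Slc11a1, Il10ra, Cd83 and Lag3), Slc11a1 fell (-1.14, adjusted p = 0.00314). Of 6 co-stimulatory genes 0 were called.

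The single-cell data place these transcripts in cells. The 4 matrices held 32531 and 25044 barcodes for TKO and 24216 and 33207 for Cre, and 48157 cells remained after filters on genes, UMIs and mitochondrial share and removal of 2.54 to 2.90% as doublets. Cre replicate 1 stood apart. The median number of UMIs per cell was 1575 and 1389 in TKO, and 2613 in Cre replicate 1 and 1614 in Cre replicate 2, and the smooth muscle-like cells of Cre replicate 1 held the least class II RNA. Libraries shared 175 to 338 barcodes in pairs before filters and 19 to 71 after. Cells were clustered without the 10 genes into 45 clusters, of which 32 were named by markers in 17 classes (70.1% of cells) and 13 stayed unnamed, and a difference from the study may come from these rebuilt names. Smooth muscle-like cells, which should lack the genes, served as a reference level for free RNA and not as its upper limit. Cd74 summed there to 680 and 682 CPM in TKO libraries, and to 162 and 830 CPM in Cre libraries.

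Cd74 was highest in 3 groups of cells. These were unnamed cluster 17, led by Lyz1, Ear2 and Tnip3 (9599 ± 632 CPM, SD, n = 4 libraries), the conventional dendritic cell-like class (8824 ± 855), led by Xcr1 and Clec9a, and unnamed cluster 2, led by Chil3, Mmp12 and Il1b (8337 ± 717). These 3 overlapped within their SD. B cell-like cells followed at 4814 ± 102 CPM, then macrophage-like (3873 ± 1350), plasmacytoid dendritic cell-like (3795 ± 816) and migratory dendritic cell-like cells (3602 ± 919), which overlapped within their spread. Below them stood NK or innate lymphoid cell-like (2259 ± 1166), Schwann-like (2129 ± 777), plasma cell-like (2012 ± 309), neutrophil-like (1994 ± 695), fibroblast-like (752 ± 432), endothelial-like (654 ± 360) and T cell-like cells (446 ± 217), beside 588 ± 293 in smooth muscle-like cells. The order is of fractions of RNA by class, and classes differ in depth.

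**Figure D3:**
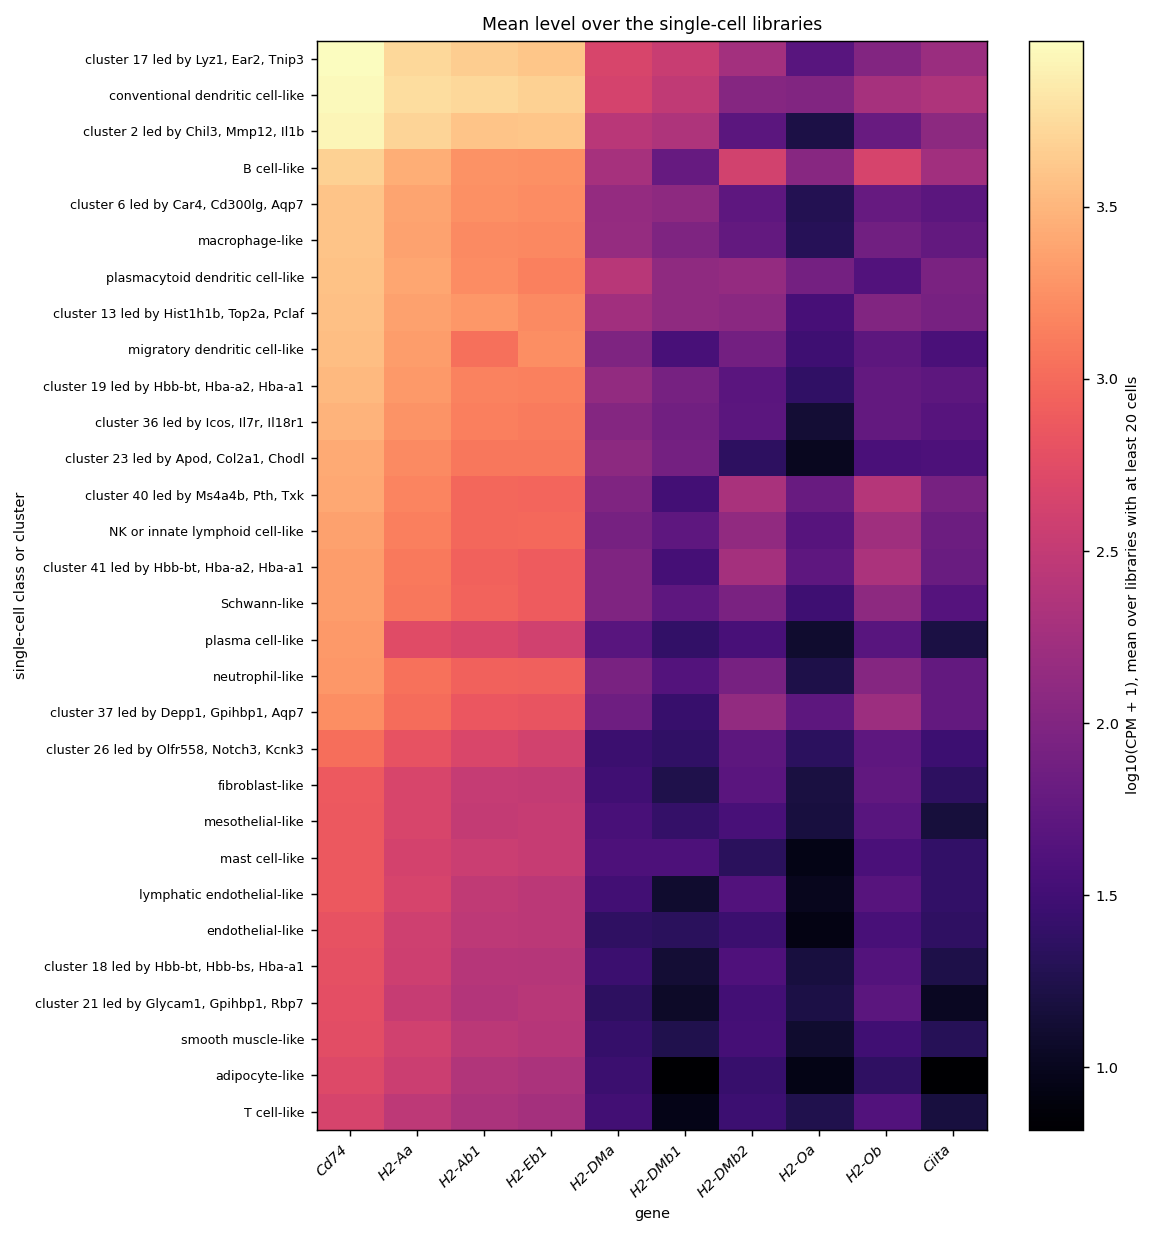
Mean level of the 10 class II genes (columns) in each cell class or unnamed cluster (rows), as colour on a log10(CPM + 1) scale, brighter being higher. Means are over the libraries with at least 20 cells of the class, which are 4, but 2 for mast cell-like cells. Cd74, H2-Aa, H2-Ab1 and H2-Eb1 are brightest in the dendritic cell-like class and clusters 17 and 2, while H2-DMb2, H2-Oa and H2-Ob are highest in B cell-like cells.

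The classical chains followed Cd74. In the conventional dendritic cell-like class H2-Aa was at 5796 ± 115 CPM, H2-Ab1 at 5296 ± 329 and H2-Eb1 at 4814 ± 332 (SD, n = 4 libraries). In cluster 17 they were at 5343 ± 672, 4536 ± 485 and 4059 ± 483, and in B cell-like cells at 2766 ± 372, 1819 ± 307.9 and 1787 ± 370. H2-DMa was at 463 ± 23.2 CPM in cluster 17, 442 ± 41.4 in the dendritic cell-like class and 190 ± 28.3 in B cell-like cells, beside 25.02 in smooth muscle-like cells. Ciita was at 221 ± 47.9 CPM in the dendritic cell-like class, 175 ± 15.2 in B cell-like cells and 157 ± 38.1 in cluster 17, beside 19.04 in smooth muscle-like cells. All 10 genes of the dendritic cell-like class summed to 26087 ± 978 CPM, and to 25684 CPM without Cre replicate 1.

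H2-DMb2 and the H2-DO genes had their highest class means in B cell-like cells. H2-Ob was at 451 ± 31.4 CPM in B cell-like cells and 192 ± 28.3 in the dendritic cell-like class, beside 30.5 in smooth muscle-like cells. H2-Oa was at 110 ± 22.7 CPM in B cell-like cells, 97.5 ± 48.1 in the dendritic cell-like class and 79.4 ± 27.5 in plasmacytoid dendritic cell-like cells, which overlapped. H2-DMb2 was at 408 ± 50.5 CPM in B cell-like cells, and H2-DMb1 was highest in cluster 17 (351 ± 70.7) and the dendritic cell-like class (298 ± 57.4). Of the H2-DMb UMIs in B cell-like cells, H2-DMb2 made up 89.8% (583 of H2-DMb2 beside 66 of H2-DMb1; exact 95% interval 87.2 to 92.0%) and 87.3% in TKO libraries, and 88.0% and 82.8% in Cre libraries. In the dendritic cell-like class the share was 27.6% and 29.6% in TKO, and 15.7% and 34.3% in Cre. In macrophage-like cells it was 38.9% and 36.3% in TKO, and 13.4% and 48.3% in Cre. In every library the B cell-like share was above these, and Cre replicate 1 had the lowest share in both other classes. Smooth muscle-like cells gave 65.5% and 64.7% in TKO, and 37.5% and 72.1% in Cre. High shares were not limited to B cell-like cells. They were 70.8 to 91.5% in lymphatic endothelial-like cells (3 libraries), and 79.2 to 88.6%, 81.1 to 94.2% and 79.7 to 92.1% in unnamed clusters 37, 40 and 41. Intervals cover counting error only.

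**Figure D4:**
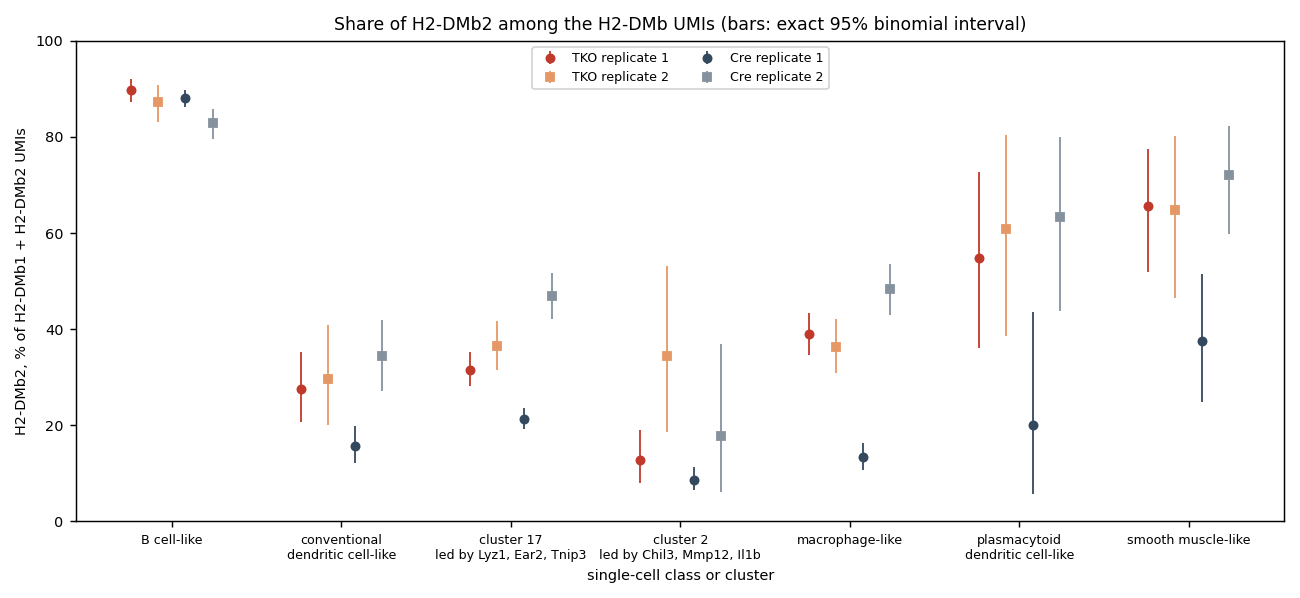
Percent of H2-DMb UMIs that are H2-DMb2, with exact 95% intervals, for TKO and then Cre libraries in 7 classes or clusters. The B cell-like points stand at 82.8 to 89.8% in all 4 libraries, above the dendritic cell-like points at 15.7 to 34.3%.

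B cell-like cells were 5.75 to 9.99% of the cells of a library and held 8.43 to 13.9% of the UMIs of the 10 genes, but 18.7 to 55.7% of H2-Ob UMIs and 17.3 to 50.5% of H2-Oa UMIs. Macrophage-like cells held 15.1 to 21.9% of the UMIs of the 10 genes, and cluster 17, at 3.36 to 4.78% of cells, held 15.2 to 24.2%. H2-Ob UMIs per 100 of H2-Aa were 14.4 to 18 in B cell-like cells, 2.73 to 3.80 in the dendritic cell-like class and 1.31 to 4.71 in macrophage-like cells. The first anti-IL-9 bulk library, with 19.5 H2-Ob counts per 100 of H2-Aa, lay above these 3 ranges. It lay inside those of T cell-like cells (12 to 25) and unnamed cluster 37 (13.5 to 24.5), so the ratio does not single out B cell-like cells. The 3 IgG libraries lay near the lower end of the macrophage-like range, though bulk and droplet counts cover transcripts differently.

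Over the 45 clusters, genes outside the class II genes and the named lists whose levels were most like the mean of Cd74, H2-Aa, H2-Ab1 and H2-Eb1 were Fgd2 (Pearson r = 0.94 on log2 CPM, among 7782 genes), Gm6377 (0.93), Ly86 (0.91), Pik3ap1 (0.90) and Irf5 (0.90). Within the class II genes r was 0.97 for H2-DMa, 0.95 for H2-DMb1 and 0.94 for Ciita, but 0.70 for H2-DMb2, 0.69 for H2-Oa and 0.66 for H2-Ob. Of the named lists, the dendritic cell maturation gene Cd83 (0.93) and March1, a ligase that removes class II molecules from the surface (0.91), came closest, both above Ly86. These are descriptions across clusters that share libraries, with no test.

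Cd74 and the classical chains in fibroblast-like, endothelial-like and T cell-like cells were near the level of smooth muscle-like cells. That level was taken as a reference for background. Cd74 in fibroblast-like cells was 693 and 989 CPM in TKO, and 171 and 1156 CPM in Cre, which is 1.02 to 1.45 times the smooth muscle-like level of the same library. The ratio was 0.94 to 1.21 in endothelial-like and 0.58 to 1.02 in T cell-like cells, against 3.00 to 6.69 in Schwann-like, 3.33 to 4.53 in NK or innate lymphoid cell-like, 9.80 to 62.3 in the dendritic cell-like class, 5.76 to 29.7 in B cell-like and 5.13 to 12.6 in macrophage-like cells. The accessory genes were less even. The ratio of H2-Ob was 1.66 to 2.82 in fibroblast-like and 1.10 to 6.04 in T cell-like cells, that of H2-DMb2 1.27 to 1.76 in fibroblast-like cells, and that of H2-Oa 0.99 to 7.02 in T cell-like cells. These rest on smooth muscle-like levels that were as low as 3.38 CPM for H2-Ob, 3.94 for H2-DMb2 and 1.31 for H2-Oa, in 1 library. With every cell thinned to 1000 UMIs, a Cd74 UMI was found in 99.0 to 100% of dendritic cell-like, 97.6 to 98.9% of B cell-like and 46.1 to 79.5% of macrophage-like cells. It was found in 6.59 to 48.0% of fibroblast-like and 7.05 to 28.6% of T cell-like cells, beside 6.26 to 37.9% of smooth muscle-like cells. B cell markers moved with it, summing in fibroblast-like cells to 320 and 470 CPM in TKO, and to 65.8 and 595 CPM in Cre.

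**Figure D5:**
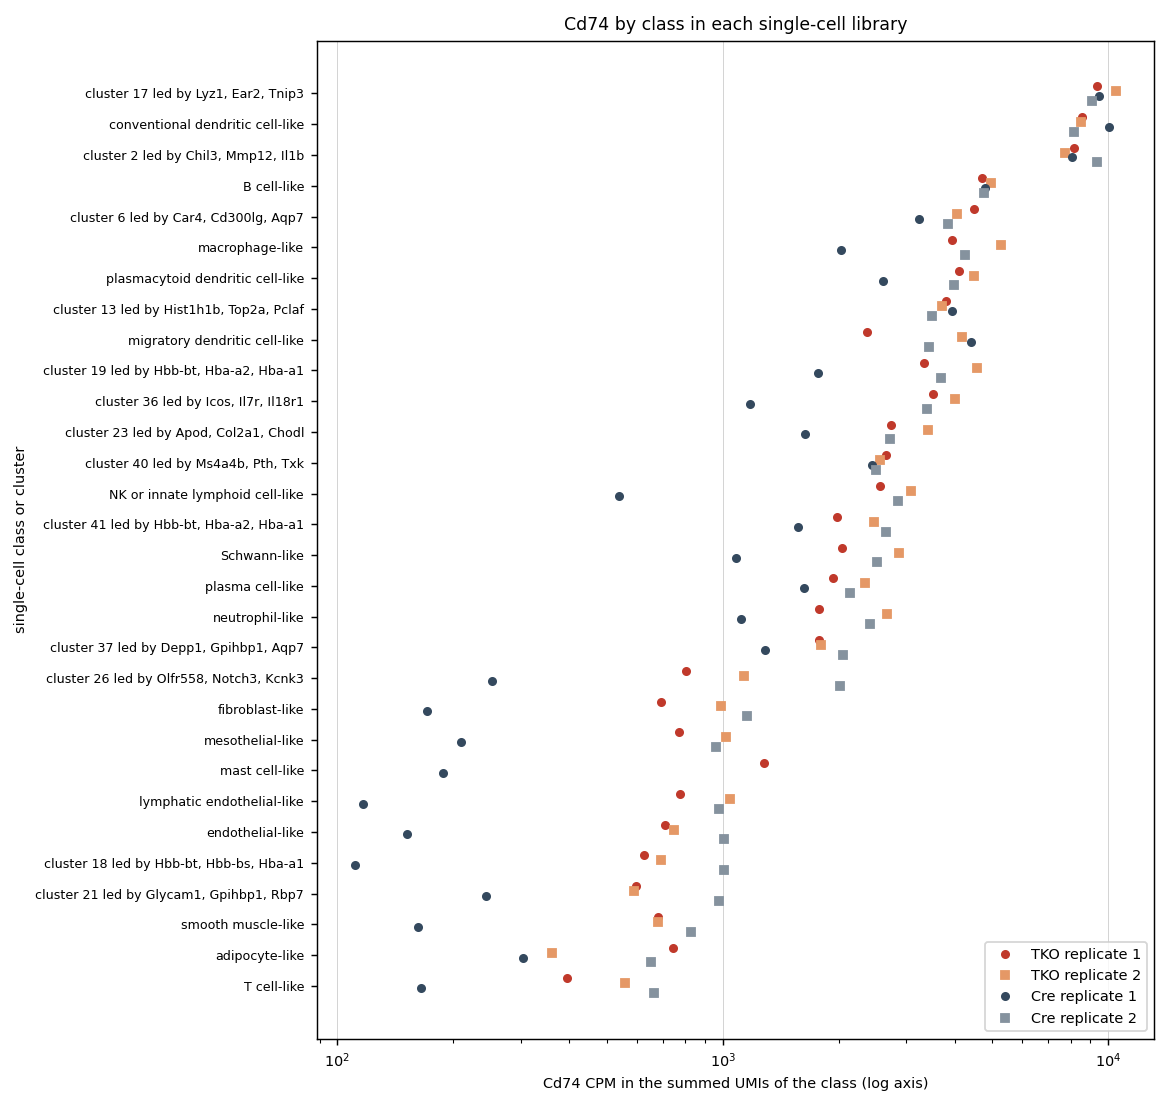
Cd74 CPM of summed UMIs on a log axis in each library (TKO, then Cre) by cell class. In smooth muscle-like, fibroblast-like and endothelial-like cells Cre replicate 1 lies lowest (151 to 171 CPM), while the dendritic cell-like libraries lie between 8141 and 10075 CPM.

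Between genotypes, summed counts per class and library were tested with edgeR's quasi-likelihood test over 29 classes and clusters with at least 20 cells in every library. Of 247 tests of class II genes 0 were called, where 0.121% of all 171213 tests were, and 1 of the 247 had an unadjusted p under 0.05 (H2-DMb1 in cluster 23, log2 fold change 0.67, adjusted p = 0.932). In the conventional dendritic cell-like class Cd74 was at 8547 and 8534 CPM in TKO, against 10075 and 8141 CPM in Cre (log2 fold change -0.13 ± 0.33, adjusted p = 0.999). In B cell-like cells Cd74 was at 4716 and 4957 CPM in TKO, against 4801 and 4780 CPM in Cre. The fitted log2 fold change was -0.10 ± 0.30, since the fit scales libraries with TMM and the CPM of single cells do not, and the sign is thus set by the scaling. These 4 B cell-like values lay within a narrow range although most B cell-like cells of Cre replicate 1 fell in cluster 8 and those of the others in cluster 28. In B cell-like cells H2-Ob was at 476 and 451 CPM in TKO, against 406.2 and 469 CPM in Cre, and H2-DMb2 at 431 and 463 CPM in TKO, against 393 and 346 CPM in Cre.

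In macrophage-like cells Cd74 was at 3938 and 5263 CPM in TKO, against 2033 and 4257 CPM in Cre (log2 fold change 0.48 ± 0.50), and without Cre replicate 1 the log2 fold change was -0.01. Cre replicate 1 had 2127 of its macrophage-like cells in cluster 1, led by Hal and Cd209f, where the other libraries had 36 to 45. In cluster 3, led by Cd14, Ms4a7 and Cx3cr1, which held 1002 and 506 cells in TKO and 76 and 482 in Cre, Cd74 was at 4822 and 6529 CPM in TKO, against 6821 and 6089 CPM in Cre. Cre replicate 1 thus differed both in the class value and in the clusters that made it up, and the part of the clusters was not tested. In this class 0.284% of all genes were called. Over all 247 tests the median log2 fold change was 0.21, -0.29 without Cre replicate 1 (0 of 252 called, beside 0.656% of all tests) and 1.19 without Cre replicate 2 (77 of 263 called, all higher in TKO, beside 2.56% of all tests). In that last setting the single Cre library is the one whose smooth muscle-like cells held the least class II RNA, and the part of free RNA in those calls was not tested. Its lone Cre library is assumed to vary like the TKO libraries.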

How the data were processed

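Bulk values were the authors' deposited counts, made per the submitters' processing notes with Trimmomatic 0.36, STAR 2.5.2b and featureCounts of Subread 1.5.2 on GRCm38. Single-cell values were deposited UMI counts per barcode, from Chromium 3′ libraries per the labels. No source states how their barcodes were called. The titles of the stripped libraries read non-stripped, and their other fields were followed. A blank row (at most 0.0025% of counts) and 1 column that matched no sample were left out. The members and lists were chosen with earlier results of these data known.

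Genes with too few counts were removed (filterByExpr, minimum 10). TMM and edgeR 4.0.16 quasi-likelihood fits (R 4.3.3, limma 3.58.1) were run within each table, and DESeq2 1.42.0, RLE, no filter, a joint fit and leaving out each library were the alternatives. Replicates of 1 group differed beyond sampling noise (chi-square per degree of freedom 13.3 to 104). The fits were tested on simulated data with 200 changed genes. Log2 fold changes of 1 in size were called for 69% (non-stripped), 47% (stripped), 60% (fibroblasts) and 40% (antibody) of genes. In single cells it was 13% (conventional dendritic cell-like), 28% (B cell-like) and 4% (fibroblast-like). For a size of 2 the shares ran from 51 to 94%. Unchanged genes were called too, 8 to 20 per bulk simulation and 2 to 24 per single-cell simulation. The changed genes were drawn at random, so the shares are not those of the class II genes. A count of 0 called thus does not show that no change of size 1 was present.

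Cells with at least 500 genes and 1000 UMIs, at most 20% mitochondrial UMIs and a doublet score of at most 0.2 were clustered (scanpy 1.11.5, 2000 variable genes, 30 components, resolution 2). The doublet limit was set by hand because the automatic one marked 0 cells. UMIs were summed per class and library to CPM without TMM. All 10 genes are named. Of each list, up to 3 called or nearest genes are named by adjusted p.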

Additional observations from a re-analysis of the deposited data

How the results depend on the processing

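In the 3 genotype comparisons of bulk tissue, 0 class II genes were called under DESeq2, RLE scaling, no filter, the joint fit or leaving out any library. In the antibody comparison 2 of 10 were called in the main setting (beside 32.1% of all genes) and under RLE (32.3%). The counts were 5 with DESeq2 (34.8%), 8 without a filter (24.6%) and 4 in the joint fit (34.3%). Leaving out 1 IgG library called 0 or 1 (22.7 to 27.1%). Without the first antibody library the median log2 fold change of the 10 genes was -1.13, and without the second 0.11. The cause was not tested beyond the library values above. In single cells, 6 tests passed with the replicate block (2 pairs, whose numbers are not shown to pair the libraries), 0 to 77 when 1 library was left out, and 0 with DESeq2, no filter, stricter cell limits or doublets kept. With the replicate block the 6 called tests, of 247, were all higher in TKO, beside 0.647% of all 171213 tests. The median log2 fold change of the 247 tests was then 0.38. No paired analysis was possible in bulk because the labels give no shared animal or batch. The summed level of the 10 genes in the dendritic cell-like class was 26087 CPM and 24808 CPM with at least 2000 UMIs per cell.

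Leaving out 1 library turned the sign of some uncalled log2 fold changes. In non-stripped aorta the ranges were -0.26 to 0.040 (H2-DMb1), -0.24 to 0.27 (H2-DMb2), -0.32 to 0.0061 (H2-Ob) and -0.35 to 0.0046 (Ciita). In stripped aorta they were -0.18 to 0.18 (H2-DMa), -0.56 to 0.64 (H2-Ob) and -0.97 to 0.64 (Ciita). In fibroblasts they were -0.16 to 0.020 (H2-Aa), -0.062 to 0.18 (H2-Eb1), -0.33 to 0.044 (H2-DMa), -0.10 to 0.34 (H2-DMb2) and -0.077 to 0.41 (H2-Ob). With the antibody they were -0.26 to 0.35 (H2-DMa), -0.91 to 2.61 (H2-DMb2) and -0.94 to 0.61 (Ciita). For Cd74 in single cells they were -0.25 to 0.017 (B cell-like) and -0.0065 to 1.19 (macrophage-like). The cause was not tested.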

Other observations

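H2-Ea-ps, the alpha chain gene of I-E, is a polymorphic pseudogene that is not functional in C57BL/6 mice, so the product of H2-Eb1 has no partner chain there. On GRCm38 it lies at 17:34341959-34344645 on the minus strand, and it was not among the 10 genes. It was listed at 0 counts in all 12 non-stripped and stripped libraries of the genotype comparisons. Fibroblast libraries held 100, 115 and 143 counts in TKO, against 95, 84 and 91 counts in Cre (log2 fold change 0.35 ± 0.20, adjusted p = 0.528). The antibody comparison held 9 and 25 counts with anti-IL-9, against 11, 3 and 8 counts with IgG. Its median in fibroblasts was 2.90 CPM per kb, above the 2.11 CPM per kb of H2-Aa there. The gene was chosen after its values were seen, and the cause of the difference between tables was not tested.

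H2-Eb2, a second beta chain gene, had 64 and 7 counts with anti-IL-9, against 9, 1 and 2 counts with IgG. In single cells it was highest in migratory dendritic cell-like cells (141.9 CPM) and B cell-like cells (133.9 CPM).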
